A study of Mus musculus with 18 samples.

Results

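The transcripts described here belong to the bile duct epithelium: the keratin genes Krt19 and Krt7, the adhesion gene Epcam, the transcription factor gene Sox9, the secreted phosphoprotein gene Spp1, the Notch ligand gene Jag1, the fibrocystin gene Pkhd1 and the chloride channel gene Cftr. They were taken by gene symbol, 8 of the 31165 genes in the table. They were measured by stranded mRNA sequencing of whole liver pieces, a 3 mm cube each, from newborn C57BL/6J mice. The mice had received a synthetic miR-497a-5p mimic or a scrambled mimic into the abdominal cavity on postnatal days 1 and 3. Livers were taken on day 5, 7 or 14 (P5, P7, P14).

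The 6 groups of 3 libraries were P5 mimic and P5 scrambled, P7 mimic and P7 scrambled, and P14 mimic and P14 scrambled, 18 libraries in all. All mice were C57BL/6J, and no uninjected liver was analysed here. Per the protocol, pups were given 10 or 100 mg per kg, and a single library's labels do not say which. Values are the authors' gene counts, scaled per library and rounded, called scaled counts below. The labels do not tie a library to a litter, so p-values measure the spread between these livers.

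Bile ducts inside the liver form from hepatoblasts that lie next to the portal veins. Jag1 on the portal mesenchyme activates Notch receptors on these cells, which switch on Sox9 and then the keratins, and the ducts go on to lengthen and remodel after birth. Mature duct cells line the ducts, carry a sensory cilium that holds fibrocystin, and add chloride and bicarbonate to bile through Cftr. Sox9, Spp1 and Jag1 are also made by other liver cells, among them periportal hepatocytes, stellate cells and endothelium. In a bulk sample, fewer duct cells and less RNA per duct cell cannot be told apart.

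The injected microRNA and the matches to it in the 8 genes are shown because they are what the mimic could act on directly. The mature miR-497a-5p and 3 relatives with the same seed, from RefSeq on GRCm38.p6, are given with the seed (bases 2 to 8) in capitals. Windows of the 3′ UTRs, from GENCODE M21 on GRCm38, are given with the match to bases 2 to 7 in capitals.
miR-497a-5p: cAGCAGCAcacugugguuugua
miR-195a-5p: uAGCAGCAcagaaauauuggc
miR-15a-5p: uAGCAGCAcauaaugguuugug
miR-16-5p: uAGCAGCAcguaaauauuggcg
Sox9 first window: ttaaatcccgGCTGCTgggaaagtat
Sox9 second window: tagccccttgGCTGCTctcctgcaga
Epcam window: ttccgaggtaGCTGCTgtgtatctgc

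The miR-497a-5p sequence lies at chr11:70234730-70234751 on the plus strand. The full match TGCTGCT, of 7 bases, was in 0 of the 8 genes' 3′ UTRs, read on the transcript strand of the longest annotated 3′ UTR. The shorter match GCTGCT, of 6 bases, was in Sox9 within the windows chr11:112786475-112786500 and chr11:112787304-112787329, and in Epcam within the window chr17:87651041-87651066. The 3′ UTRs searched ran from 103 bases in Krt19 to 2648 bases in Krt7. A match of letters describes the sequence and is not a measured binding site.

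Per kb of the longest annotated transcript, the 8 genes differed widely in level. Spp1 was highest at 427 ± 71.6 scaled counts per kb (SD, n = 18), followed by Epcam at 56.1 ± 22.8 and Krt19 at 39.1 ± 20.8. Jag1 at 32.5 ± 7.53, Sox9 at 31.3 ± 7.17 and Pkhd1 at 16.3 ± 4.15 came next, then Krt7 at 10.5 ± 5.35 and Cftr at 1.31 ± 1.63. From Epcam to Krt19, Jag1 and Sox9, each step of the means was smaller than 1 SD between livers, which does not settle their order. In single livers Epcam was above Krt19 and Sox9 except in P14 scrambled replicate 2, at 29.9 against 41.2 and 34.3. The order of Krt19, Jag1 and Sox9 changed from liver to liver. The hepatocyte gene Alb (albumin) stood at 1026 ± 137 scaled counts per kb in the same livers. Alb averaged 2086 scaled counts, close to the 1558 of the transcription factor gene Hnf4a, and the globin gene Hbb-bs averaged 246. Whether high levels are compressed in these values was not tested, so ratios to Alb are not read as ratios of RNA.

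**Figure D1:**
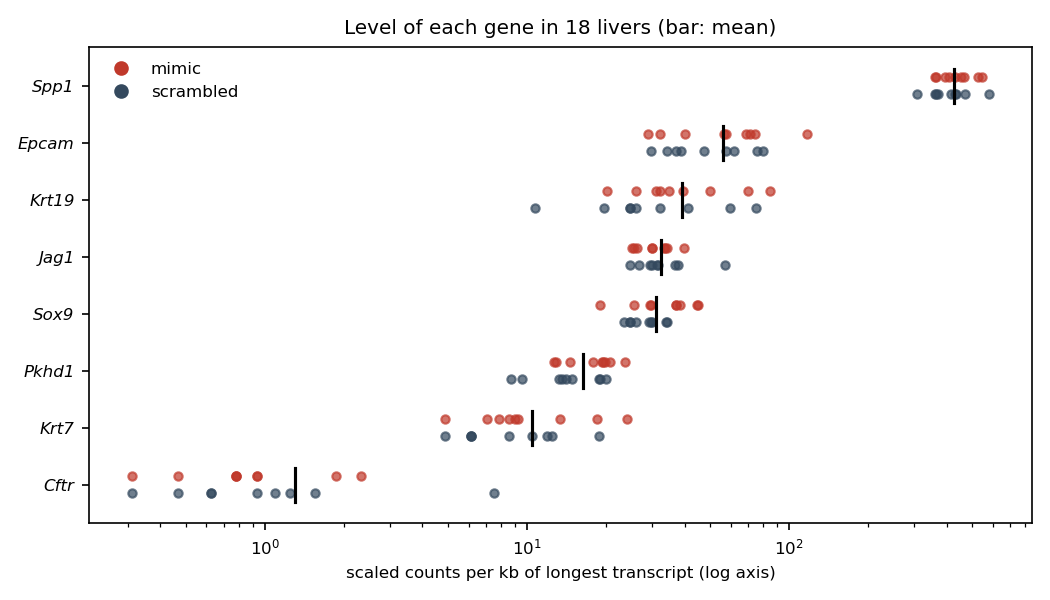
Scaled counts per kb of longest transcript (log axis) for each gene, with 1 point per liver, mimic above scrambled, and a bar at the mean of 18 livers. Spp1 stands highest at a mean of 427 and Cftr lowest at 1.31.

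The libraries summed to between 3954405 and 4248257 scaled counts, and the 14104 genes averaging at least 10 were tested. 7 of the 8 duct genes passed that filter, and Cftr, at a mean of 8.39, did not. Replicate 3 of P7 scrambled carried 3.08 scaled counts per kb at genes that were silent in the 16 libraries used to pick them, against 0.168 in replicate 2 of that group and at most 0.0260 in those 16. For each library, log2 values were taken as deviations from each gene's mean over the 18 libraries. The rank correlation of these deviations with transcript length ran from -0.352 to 0.485. Mesothelium genes summed to between 39 and 506 scaled counts per liver, pancreas acinar genes to between 80 and 140, and gut epithelium genes to between 369 and 589, out of 7, 8 and 8 genes listed. The 7 skeletal muscle genes summed to 1588 scaled counts in P7 scrambled replicate 1 and 400 in P7 scrambled replicate 3, against 1 to 22 in the other 16 libraries. One of them, Ttn, was the gene called between mimic and scrambled livers at P7 (-5.82 on the log2 scale, adjusted p 0.0248, limma). The part of these muscle transcripts in the P7 values of the duct genes was not tested.

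Krt19 and Krt7 encode the intermediate filament keratins that distinguish duct cells from hepatocytes. At P5, Krt19 had 49, 79 and 134 scaled counts in mimic livers, against 39, 41 and 17 in scrambled livers. Every P5 mimic liver was above every P5 scrambled liver. Krt19 had 55, 32 and 51 scaled counts in P7 mimic livers and 51, 39 and 31 in P7 scrambled livers. It had 110, 41 and 62 in P14 mimic livers and 118, 65 and 94 in P14 scrambled livers. At both later days the groups overlapped, and the mimic liver labelled replicate 1 at P14 stood close to the highest scrambled one.

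The P5 difference in Krt19 did not pass the threshold over all genes. It was 1.39 on the log2 scale, SE 0.40, a 2.61-fold difference of 87.3 ± 43.1 against 32.3 ± 13.3 scaled counts (SD, n = 3 each), with an unadjusted p of 0.00274 and a Benjamini-Hochberg adjusted p of 1 (limma), and of 0.787 to 1 over its 16 alternatives. At P7 the difference was 0.18 (SE 0.40) and at P14 it was -0.45 (SE 0.40). The test of whether the mimic difference varied between the days gave an unadjusted p of 0.0142 and an adjusted p of 0.629 for Krt19 (limma F test). That test called 0 of the 7 tested duct genes and 0.00709% of all genes. Mesothelium, the lining of the liver surface, also makes both keratins. Its 7 listed genes summed to 39, 64 and 67 scaled counts in P5 mimic livers and 66, 43 and 243 in P5 scrambled livers. At P14 they summed to 449, 506 and 39 in mimic livers and 56, 190 and 102 in scrambled livers. The part of mesothelium in the keratin values was not tested.

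Krt7 had 29, 55 and 99 scaled counts in P5 mimic livers and 25, 51 and 25 in P5 scrambled livers. It had 37, 20 and 35 in P7 mimic livers and 25, 20 and 43 in P7 scrambled livers. At P14 it had 76, 38 and 32 in mimic livers and 77, 35 and 49 in scrambled livers. The groups overlapped on every day, and 1 liver stood well above the other 2 in the P14 mimic and P5 scrambled groups. The mimic difference in Krt7 was 0.75 (SE 0.44) at P5, 0.09 at P7 and -0.17 at P14 on the log2 scale.

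Epcam encodes the epithelial adhesion molecule that duct cells keep and hepatocytes lose. It had 140, 152 and 239 scaled counts in P5 mimic livers and 97, 162 and 79 in P5 scrambled livers. Its P7 values were 82, 66 and 118 in mimic livers and 70, 76 and 118 in scrambled livers. The P14 values were 145, 59 and 115 in mimic livers and 154, 61 and 126 in scrambled livers. At P5, 1 scrambled liver lay between the middle and the highest mimic liver, and at P7 and P14 both groups covered nearly the same span. The mimic difference was 0.67 (SE 0.37) at P5, 0.01 at P7 and -0.09 at P14 on the log2 scale, and leaving out single livers turned the sign of the P7 and P14 values.

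**Figure D2:**
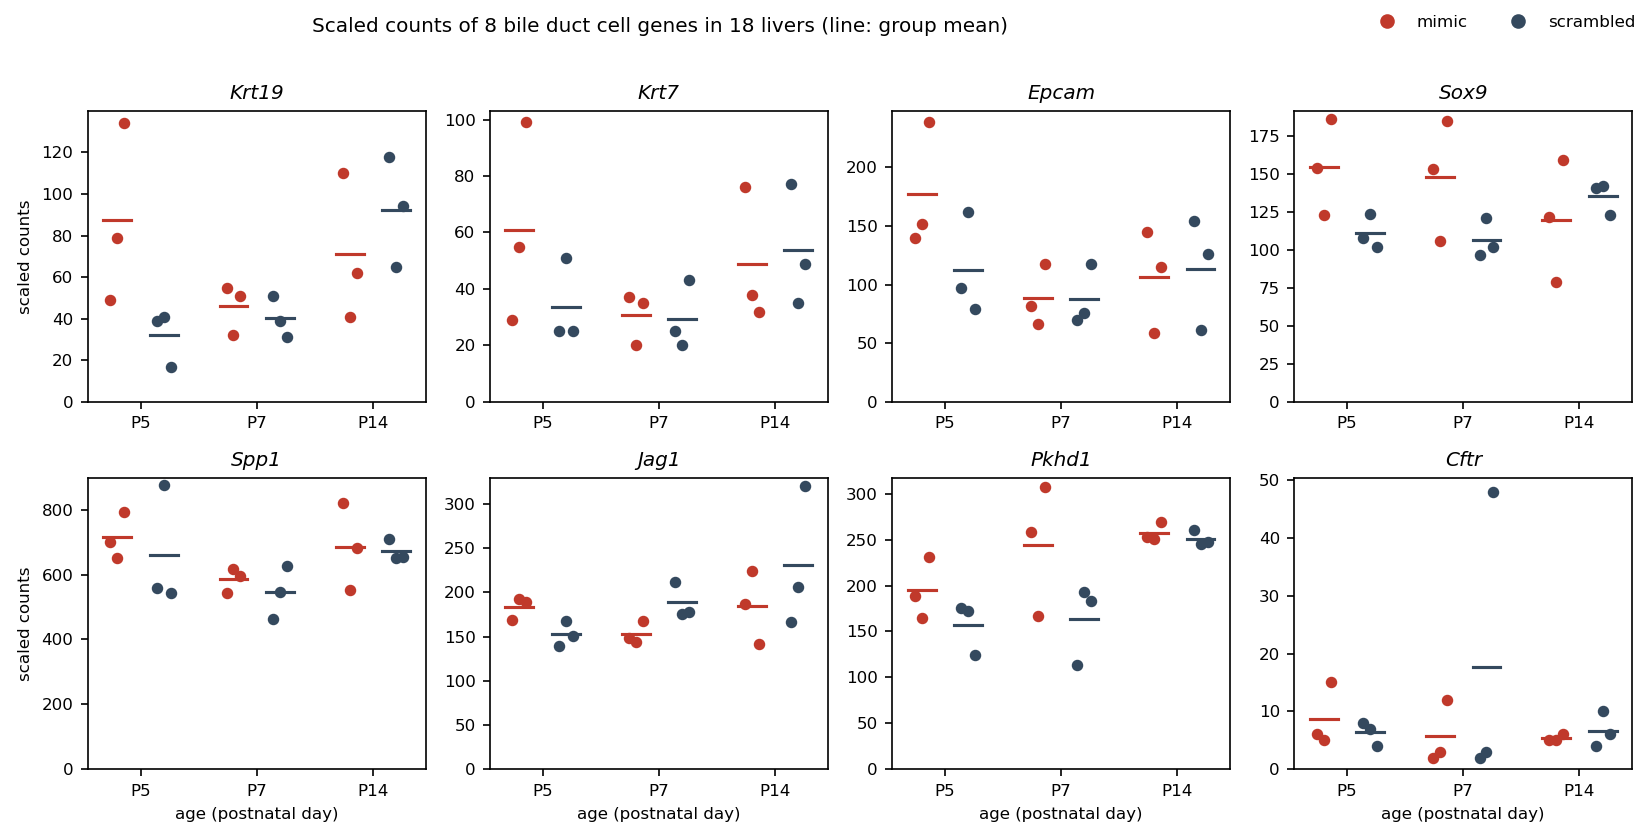
Scaled counts of the 8 genes by postnatal day, with 1 point per liver, mimic left of scrambled, and a line at each group mean (each vertical axis starts at 0). Krt19 at P5 has all 3 mimic livers above all 3 scrambled livers, Pkhd1 at P14 stands between 245 and 269 in all 6 livers, and Cftr has 1 P7 scrambled liver at 48.

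Sox9 encodes the transcription factor that marks the ductal plate. Its P5 values were 154, 123 and 186 scaled counts in mimic livers and 108, 124 and 102 in scrambled livers. Its P7 values were 153, 106 and 185 in mimic livers and 97, 121 and 102 in scrambled livers. Its P14 values were 122, 79 and 159 in mimic livers and 141, 142 and 123 in scrambled livers. At P5 only scrambled replicate 2 reached into the mimic range, by 1 scaled count, and at P14 the mimic livers lay on both sides of all 3 scrambled ones. The Sox9 difference was 0.45 (SE 0.23) at P5, 0.44 (SE 0.23) at P7 and -0.23 (SE 0.23) at P14 on the log2 scale, with adjusted p-values of 1, 0.696 and 1.00 (limma).

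Jag1 encodes the Notch ligand whose loss of 1 copy gives too few bile ducts in humans with Alagille syndrome. It had 169, 193 and 189 scaled counts in P5 mimic livers and 139, 168 and 151 in P5 scrambled livers. At P7 it had 148, 144 and 168 in mimic livers and 212, 176 and 178 in scrambled livers. At P14 it had 187, 224 and 142 in mimic livers and 166, 206 and 320 in scrambled livers. The P5 mimic livers were all above the scrambled ones, the P7 mimic livers were all below, and at P14 the groups overlapped, with 1 scrambled liver at 320.

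The Jag1 differences were small and passed no threshold. On the log2 scale they were 0.27 (SE 0.19) at P5, -0.30 (SE 0.19) at P7 and -0.29 (SE 0.19) at P14, with adjusted p-values of 1, 0.808 and 0.985 (limma). The test of a difference between days gave an adjusted p of 0.843. Of all genes tested, 5.01% had groups that did not overlap at P5 (2.89% with the mimic higher) and 14% at P7 (7.44% with the mimic lower). Over the 7 tested duct genes, 2 did not overlap at P5, Krt19 and Jag1, 1 did not at P7, Jag1, and 0 at P14, where 9.31% of all genes did not.

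Spp1 encodes osteopontin, a secreted phosphoprotein of duct cells. It had 701, 651 and 792 scaled counts in P5 mimic livers and 559, 876 and 543 in P5 scrambled livers. The P7 values were 543, 617 and 596 in mimic livers and 463, 547 and 628 in scrambled livers. The P14 values were 821, 551 and 683 in mimic livers and 710, 651 and 653 in scrambled livers. The groups overlapped on each day, and the highest liver of all was a P5 scrambled one. The mimic difference was 0.15 (SE 0.16) at P5, 0.11 at P7 and 0.01 at P14 on the log2 scale, each within an interval that includes 0.

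Pkhd1 encodes fibrocystin, the ciliary membrane protein whose loss in humans causes autosomal recessive polycystic kidney and liver disease. It had 189, 165 and 231 scaled counts in P5 mimic livers and 176, 172 and 124 in P5 scrambled livers. At P7 it had 258, 167 and 307 in mimic livers and 113, 193 and 183 in scrambled livers. At P14 it had 253, 251 and 269 in mimic livers and 260, 245 and 247 in scrambled livers. The P7 livers were the most spread, with mimic replicates 1 and 3 far above the rest, and the 6 P14 livers were the closest together.

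The mimic difference in Pkhd1 at P7 was 0.57 on the log2 scale, SE 0.21, with an unadjusted p of 0.0137 and an adjusted p of 0.455 (limma). Pkhd1 has the longest transcript of the 8, at 12935 bases. The P7 mimic replicates 1 and 3 had the highest rank correlations of a library's deviations with transcript length, 0.485 and 0.459. P7 scrambled replicate 2 was next at 0.434, with Pkhd1 at 193 scaled counts. Over all alternatives the mimic difference was lowest, 0.33, without P7 scrambled replicate 1, the liver with the highest skeletal muscle sum. It was highest, 1.06, without P7 scrambled replicates 2 and 3 together, and was 0.52 with a covariate for the length correlation. The adjusted p-values were 0.801, 0.287 and 0.372 (limma).

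Cftr encodes the chloride channel of the duct's apical membrane. It had 6, 5 and 15 scaled counts in P5 mimic livers and 8, 7 and 4 in P5 scrambled livers. It had 2, 3 and 12 in P7 mimic livers and 2, 3 and 48 in P7 scrambled livers, then 5, 5 and 6 in P14 mimic livers and 4, 10 and 6 in P14 scrambled livers. In 17 of the livers it stayed at 15 or less, and it was not tested. The value of 48 is from P7 scrambled replicate 3, in which the level of otherwise silent genes, multiplied by the 6.41 kb of the Cftr transcript, comes to 19.7 scaled counts. In the same library this product was 39.8 for Pkhd1 (of 183 scaled counts), 17.3 for Jag1 (178) and 12.7 for Sox9 (102). It was 12.6 for Krt7 (43), 6.3 for Epcam (118), 4.8 for Krt19 (31) and 4.6 for Spp1 (628). The overlapping antisense gene Gm15592 reached at most 4 scaled counts, in that library.

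Across the injection comparison as a whole, 0 of the 7 tested genes passed an adjusted p of 0.05 at P5, P7 or P14 or in the average over the days (limma). The same rule called 0% of all 14104 genes at P5, 0.00709% at P7, 0.0213% at P14 and 0.00709% in the average. At an unadjusted p under 0.05, 1 duct gene passed at P5 (Krt19), 1 at P7 (Pkhd1), 0 at P14 and 1 in the average (Pkhd1, 0.31, SE 0.12), beside 1.89%, 7.61%, 5.41% and 3.24% of all genes. All 7 differences were above 0 at P5, 6 of 7 at P7 and 2 of 7 at P14, beside 45%, 48.8% and 51.1% of all genes. No sign turned at P5 in any alternative tried, but those of Krt19, Krt7, Epcam and Spp1 did at P7, and those of Krt7, Epcam, Sox9 and Spp1 did at P14, each in at least 1 alternative. Their medians were 0.45, 0.11 and -0.17 on the log2 scale, beside -0.01, -0.0046 and 0.0036 over all genes tested. These 7 values come from the same livers and share cells, so they are not separate measurements of the mimic. The intervals are wide: for Krt19 at P14, 95% limits of -1.29 and 0.39 leave room for a difference in either direction.

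**Figure D3:**
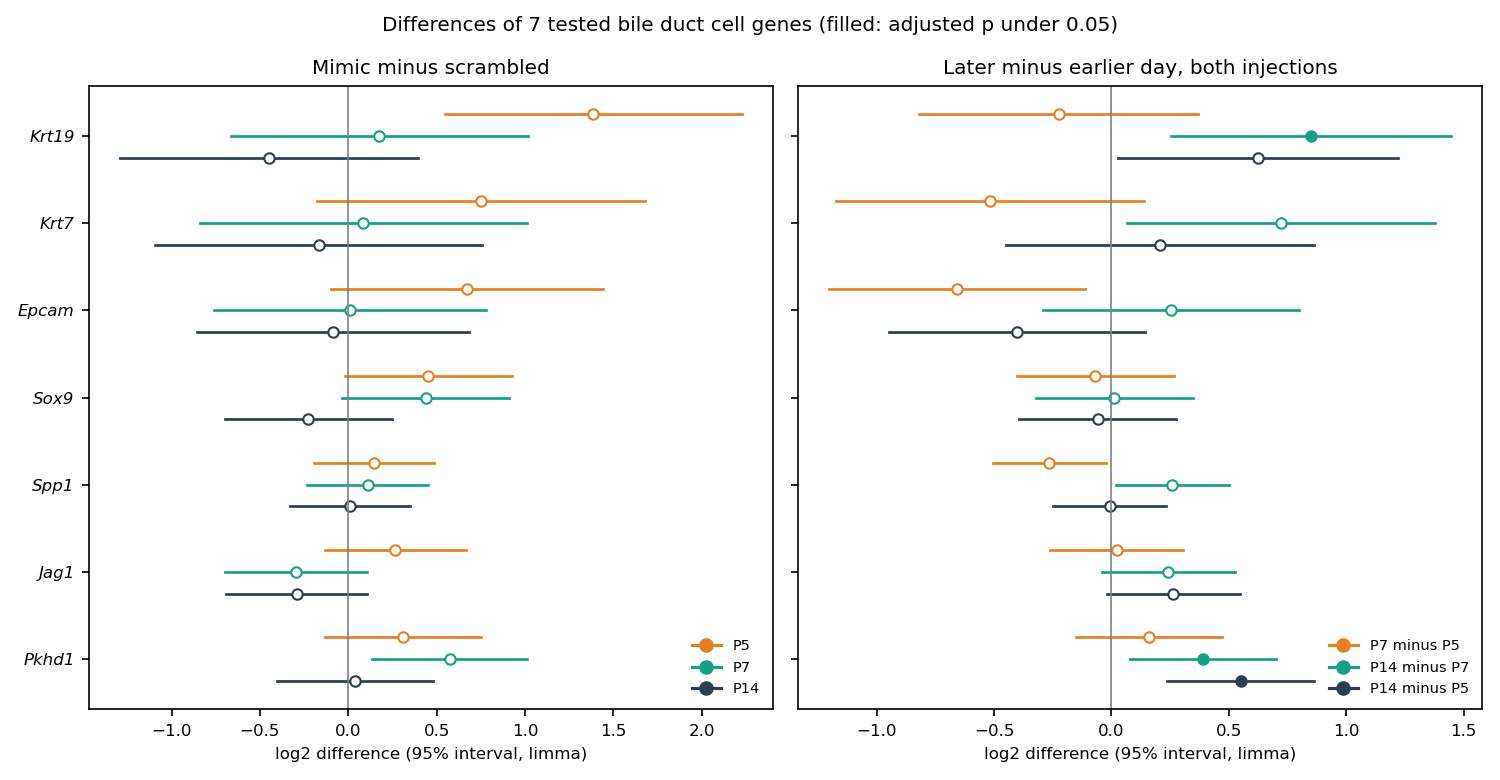
Log2 differences of the 7 tested genes with 95% limits from limma, mimic minus scrambled at each day on the left and later minus earlier day over both injections on the right (filled points have an adjusted p under 0.05). No point is filled on the left, and Krt19 (P14 minus P7) and Pkhd1 (P14 minus P7 and P14 minus P5) are filled on the right.

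With both injections combined, Pkhd1 was called between P14 and P5, and Pkhd1 and Krt19 were called between P14 and P7. Krt19 was not called between P14 and P5, at 0.62 on the log2 scale with an adjusted p of 0.0766 (limma). Over both injections, Pkhd1 rose to 254 ± 8.95 scaled counts at P14, against 176 ± 34.7 at P5 (SD, n = 6 each). The 6 P14 livers, at 245 to 269, were all above the 6 P5 livers, at 124 to 231. The difference was 0.55 on the log2 scale, SE 0.15, a 1.46-fold rise with an adjusted p of 0.00490 (limma). With the length covariate it was 0.51, with an adjusted p of 0.00504 (limma). Pkhd1 was 1 of 7 duct genes called between P14 and P5, where 48.8% of all genes were called and 23.9% were called higher. The share of all genes whose P14 and P5 livers did not overlap was 26.2%, and 10.9% were higher at P14.

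Between P14 and P7, 2 of 7 duct genes rose, where 50.3% of all genes were called and 24% were called higher. Krt19 averaged 81.7 ± 30.3 scaled counts at P14 and 43.2 ± 10.5 at P7 (SD, n = 6 each). This is 0.85 higher on the log2 scale (SE 0.28), with an adjusted p of 0.0186 (limma). Its P14 livers, at 41 to 118, overlapped the P7 livers, at 31 to 55. Pkhd1 averaged 254 ± 8.95 at P14 and 204 ± 68.9 at P7, a log2 difference of 0.39, SE 0.15, with an adjusted p of 0.0366 (limma).

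Both of these calls depended on single livers or settings. The Krt19 difference was 0.66 without P14 mimic replicate 1 (adjusted p 0.0615), 0.75 without P14 scrambled replicate 1 (adjusted p 0.0503), 0.67 without P7 scrambled replicates 2 and 3 together (adjusted p 0.156) and 1.05 with the length covariate (adjusted p 0.0923, limma). The Pkhd1 difference lost its call when any of the 6 P14 livers, P7 mimic replicate 2 or P7 scrambled replicate 1 was left out, with no filter on low genes (adjusted p 0.0582) and with no trend of variance with mean (adjusted p 0.0569, limma). Its lowest value was then 0.26 without P7 mimic replicate 2 (adjusted p 0.112, limma).

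From P5 to P7, 0 of 7 duct genes passed, where 26.9% of all genes did. Epcam averaged 88.3 ± 23.6 scaled counts at P7 and 145 ± 56.3 at P5 (SD, n = 6 each). The difference, P7 minus P5, was -0.66 (SE 0.26), with an adjusted p of 0.0668 (limma). Spp1 averaged 566 ± 61.4 at P7 and 687 ± 130.7 at P5, a difference of -0.27, SE 0.11, with an adjusted p of 0.0895 (limma). At an unadjusted p under 0.05, 2 of 7 duct genes passed, these 2, beside 41% of all genes. Epcam passed without P7 scrambled replicate 3, at -0.77 with an adjusted p of 0.0442 (limma). Spp1 passed without P5 scrambled replicate 1, at -0.32 with an adjusted p of 0.0460 (limma). With the length covariate, the P7 against P5 comparison called 1 of all 14104 genes. The smallest adjusted p of a duct gene was then 0.716 (limma), and the Spp1 difference was 0.00024. The length correlation ran from 0.0534 to 0.485 in P7 libraries, from -0.352 to 0.197 in P5 libraries and from -0.241 to 0.0162 in P14 libraries. It largely followed the day, so with this covariate the comparisons of P7 with P5 or P14 cannot tell length from day.

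In the scrambled livers alone, 3 of 7 duct genes were called higher at P14 than at P5, where 35.2% of all genes were called and 16.1% higher. Krt19 averaged 92.3 ± 26.5 scaled counts at P14 and 32.3 ± 13.3 at P5, a log2 difference of 1.54 with an adjusted p of 0.00553 (limma). Pkhd1 averaged 251 ± 8.14 at P14 and 157 ± 28.9 at P5, a difference of 0.69 with an adjusted p of 0.0160 (limma). Jag1 averaged 231 ± 79.9 at P14 and 153 ± 14.6 at P5, a difference of 0.54 with an adjusted p of 0.0334 (limma), and the 2 groups overlapped. Leaving out P5 scrambled replicate 3 left 1 call, Krt19, and leaving out P5 scrambled replicate 1 or P14 scrambled replicate 3 left Krt19 and Pkhd1. The Jag1 call was also lost with no filter on low genes, with no trend of variance with mean and with only the libraries compared.

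In the mimic livers alone, 0 of 7 duct genes were called between any of the days, where 10% of all genes were called between P7 and P5, 29.5% between P14 and P7 and 33.4% between P14 and P5. The P14 minus P5 difference there was -0.29 for Krt19, 0.41 for Pkhd1 and -0.02 for Jag1 on the log2 scale, with unadjusted p-values of 0.475, 0.0648 and 0.930 (limma). At an unadjusted p under 0.05, only Epcam passed in that comparison, at -0.78 with an adjusted p of 0.110 (limma), beside 43% of all genes. The 2 injections share no livers, and whether their age differences differ is what the test between days asks: its smallest adjusted p among the 7 was the 0.629 of Krt19. In scrambled livers between P14 and P7, Krt19 (1.16, adjusted p 0.0322) and Pkhd1 (0.66, adjusted p 0.0224) were called, where 33.8% of all genes were called and 14.4% higher, and leaving out any 1 of the 6 livers removed at least 1 of these calls (limma). Leaving out P14 scrambled replicate 1 removed both. Between P7 and P5 in scrambled livers, 0 of 7 duct genes and 0% of all genes were called. There, 0 of 7 duct genes had an unadjusted p under 0.05, beside 23.1% of all genes (limma).

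Genes of other liver cells also changed with age. Between P14 and P5, 8 of 8 neutrophil genes and 6 of 8 red cell precursor genes fell, and 5 of 10 genes of stellate cells and portal mesenchyme rose. Of the others, 6 of 8 macrophage, 3 of 8 endothelial and 3 of 5 hepatoblast genes fell, and 4 of 8 hepatocyte genes rose. Of all genes tested, 24.8% fell and 23.9% rose in this comparison. The 8 neutrophil genes summed to 659 to 1457 scaled counts in the 6 P14 livers, against 3720 to 7443 in the 6 P5 livers, and none was at 0 in all livers. The 10 stellate cell and portal mesenchyme genes summed to 6929 to 11566 at P14, against 4298 to 7313 at P5. Scaled counts are relative to the other genes of a library, and the part of these shifts in the rise of Pkhd1 was not tested. With scaling by trimmed mean of M-values or quantile normalization the Pkhd1 rise from P5 was 0.58 and 0.63.

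Genes that work beside the 8 in the duct moved in both directions with age. Of 7 tested duct transcription factor genes, 1 rose and 0 fell at P14 against P5, with a list median of 0.09 on the log2 scale beside 0.01 over all genes. For this and the next 4 lists, the share of all genes called between P14 and P5 was 48.8%, with 23.9% higher and 24.8% lower. Onecut2, a factor of early liver and duct development, rose by 0.41 with an adjusted p of 0.00191 (limma). Tead4, a partner of the Hippo effector Yap, averaged 17.3 ± 5.89 at P14 and 23.7 ± 6.71 at P5 and did not pass, with an adjusted p of 0.194 (limma). Elf3, an epithelial transcription factor gene, averaged 56.2 ± 15.4 at P14 and 46.5 ± 13.4 at P5 and did not pass either, with an adjusted p of 0.321 (limma).

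Of 15 tested surface and keratin genes other than the 8, 4 rose and 4 fell, with a median of 0.06, a called share near the 48.8% of all genes. Cd24a, a surface glycoprotein gene also active in blood cell precursors, averaged 324 ± 54.5 scaled counts at P14 and 1098 ± 146.7 at P5, a difference of -1.77. Ezr, which ties membranes to actin, averaged 221 ± 36.1 at P14 and 504 ± 56.4 at P5, a difference of -1.19. Prom1, a marker of duct and progenitor cells, averaged 680 ± 85.9 at P14 and 476 ± 69.0 at P5, a difference of 0.52. The adjusted p-values were 2.77e-10, 1.83e-08 and 0.000640 (limma).

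Of 7 tested transport and receptor genes, 4 rose and 2 fell, beside 23.9% and 24.8% of all genes, with a median of 0.29. Ggt1, a glutathione-cleaving enzyme that the fetal liver makes at high level, averaged 4 ± 3.03 scaled counts at P14 and 117 ± 32.5 at P5, a difference of -4.73. Aqp1, a water channel of duct cells and endothelium, fell by 0.75. Slc5a1, the apical sodium and glucose carrier, averaged 43.7 ± 16.03 at P14 and 14.8 ± 7.41 at P5, a difference of 1.53. The adjusted p-values were 2.10e-10, 2.48e-06 and 0.000180 (limma). The other 4 genes of this list, among them the secretin receptor gene Sctr at a mean of 2 scaled counts, were too low to test.

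Of 15 Notch pathway genes other than Jag1, 6 rose and 2 fell, with a median of 0.25, and the 8 called are again near the 48.8% of all genes. Heyl, a target of Notch also found in vascular smooth muscle, averaged 336 ± 66.8 scaled counts at P14 and 159 ± 76.2 at P5, a difference of 1.18 with an adjusted p of 4.67e-05 (limma). Lfng, a sugar transferase that tunes Notch binding to its ligands, fell by 0.76, and Adam10, the protease that cuts activated Notch, fell by 0.66. Of 15 cilium and fibrocystic disease genes other than Pkhd1, 7 rose and 1 fell, with a median of 0.19, and as many were called as in the Notch list. Pkd2, the polycystin cation channel, rose by 0.49 with an adjusted p of 0.000237, and Sec63, mutated in human polycystic liver disease, rose by 0.30 with an adjusted p of 0.000160 (limma). Ift140, a subunit of the ciliary transport complex, averaged 128 ± 13.5 at P14 and 503 ± 74.2 at P5, a difference of -1.97. In the injection comparisons, 0 of the 59 genes of these 5 lists passed on any day.

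**Figure D4:**
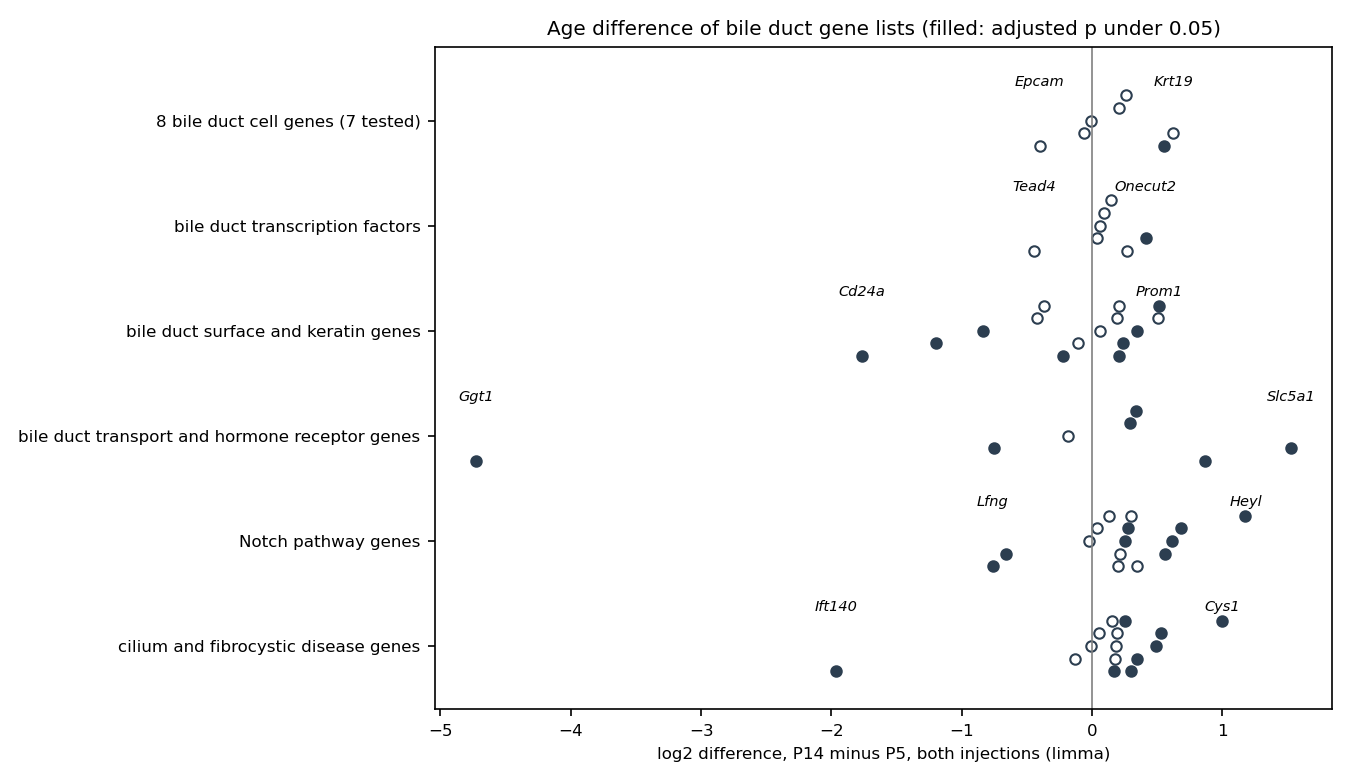
Log2 difference between P14 and P5 over both injections for the 7 tested duct genes and the tested genes of 5 related lists, with 1 point per gene (filled points have an adjusted p under 0.05). Ggt1 at -4.73 is the lowest and Slc5a1 at 1.53 the highest of the points shown.

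Within a group, livers differed most in Krt7, Krt19 and Epcam. The pooled within-group SD on the log2 scale was 0.63 for Krt7, 0.57 for Krt19 and 0.53 for Epcam, then 0.31 for Sox9, 0.30 for Pkhd1, 0.26 for Jag1 and 0.23 for Spp1. Of the 4414 genes with means of 80 to 250 scaled counts, 98.5% had a lower SD than Epcam, and the median was 0.19. Of the 1826 genes with means of 30 to 80, 93.2% had a lower SD than Krt7 and 90.6% a lower SD than Krt19, with a median of 0.32. Each library was made from 1 cube of tissue, and how many ducts a cube held was not measured.

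The keratins and Epcam were high or low in the same livers. As deviations from group means on the log2 scale over 18 livers, Krt7 and Epcam had a Pearson r of 0.781 (adjusted p 0.0174) and a Spearman rho of 0.800 (adjusted p 0.0176). Epcam and Spp1 had an r of 0.744 (adjusted p 0.0174) and a rho of 0.775 (adjusted p 0.0176). Sox9 and Pkhd1 had an r of 0.656 (adjusted p 0.0174) and a rho of 0.730 (adjusted p 0.0176). These p-values come from an exact two-sided permutation of libraries within groups, 46656 arrangements, adjusted over 21 gene pairs.

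Of the 21 pairs, 3 passed by Pearson and 6 by Spearman, and 17 had an r above 0. The 3 that passed by rank only were Krt19 with Krt7 (r 0.706, adjusted p 0.0603; rho adjusted p 0.0266), Krt19 with Epcam (r 0.697, adjusted p 0.0598; rho adjusted p 0.0176) and Epcam with Pkhd1 (r 0.518, adjusted p 0.0720; rho adjusted p 0.0176), all by the same exact permutation. Without the 2 livers farthest from the median of the first gene, r was 0.732 for Krt7 and Epcam, 0.789 for Epcam and Spp1, and 0.652 for Sox9 and Pkhd1. Leaving out single livers took Krt7 with Epcam and Sox9 with Pkhd1 to adjusted p-values of 0.0504 without P7 mimic replicate 2. It took Krt7 with Epcam and Epcam with Spp1 to 0.0689 without P5 scrambled replicate 2 (exact permutation, r of 0.744 and 0.712). In each of these 2 cases 1 pair still passed by Pearson. Other omissions added calls: 6 pairs passed without P7 scrambled replicate 3, and 5 without P5 scrambled replicate 1 or P7 scrambled replicate 1.

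Jag1 stood apart from the other 6. Its r with them ran from -0.377 with Sox9 to 0.117 with Krt7, and none of its 6 pairs passed. The highest liver in Jag1, P14 scrambled replicate 3 at 320 scaled counts, was at 94 in Krt19, 49 in Krt7 and 126 in Epcam, the middle value of its group in each. No gene's deviations followed the library's rank correlation with transcript length past the threshold: the largest r was 0.485 for Pkhd1, with an adjusted p of 0.650 (exact permutation, 7 genes).

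**Figure D5:**
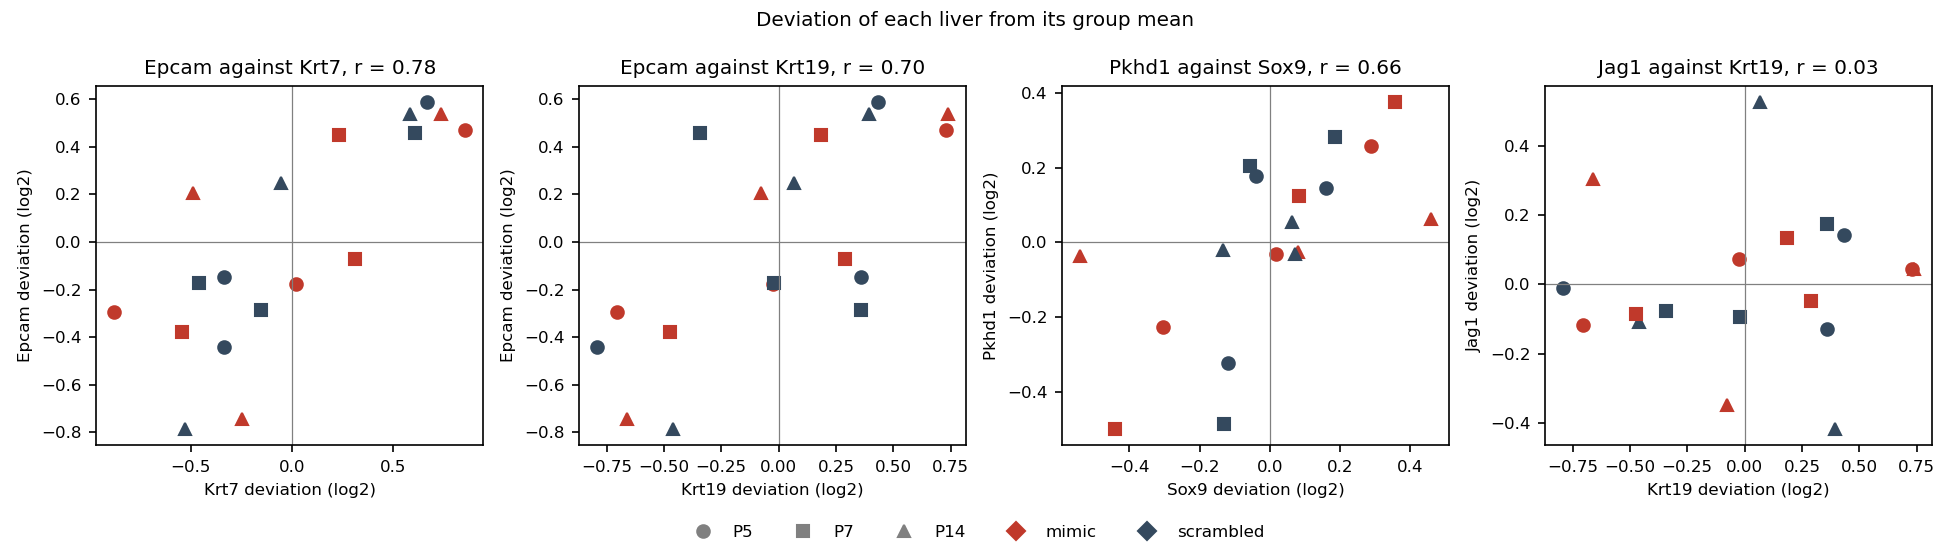
Deviation of each of 18 livers from its group mean on the log2 scale, for 4 pairs of genes (colour marks the injection, shape the day). Points run along a rising line for Epcam against Krt7 (r 0.781), Epcam against Krt19 (r 0.697) and Pkhd1 against Sox9 (r 0.656), and show no slope for Jag1 against Krt19 (r 0.0323).

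The genes whose pattern over the 18 livers was most like each duct gene, among genes averaging at least 50, were found by Pearson's r of log2 values, given as a description. Epcam was closest to St14, a membrane protease gene of epithelia that is on the surface gene list, at 0.893. Krt19 was closest to Pdgfd at 0.875, Krt7 to Tmem132a at 0.846 with Krt19 next at 0.777, and Spp1 to Ethe1 at 0.850. Sox9 was closest to Pnpla6 at 0.736, with Dcdc2a, a cilium gene whose human counterpart is mutated in neonatal sclerosing cholangitis, also at 0.719. Pkhd1 was closest to Mterf2 at 0.837, Jag1 to Tm4sf1, a gene known from endothelium, at 0.803, and Cftr to Ddr1 at 0.653. All 18 points share the ages, so a gene that changes with age alone can score high.

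The mean deviation of Krt19, Krt7 and Epcam, a summary chosen after their values were seen, was compared with other genes in the same way. Its r was above 0.5 for 3 of 7 duct transcription factor genes, 6 of 15 surface and keratin genes, 2 of 7 transport and receptor genes, 1 of 15 Notch pathway genes and 3 of 15 cilium genes, beside 4.93% of all 14104 genes. The highest were Cldn4, a tight junction gene, at 0.820, St14 at 0.815, Ehf, an epithelial transcription factor gene, at 0.812 and Muc1, an apical mucin gene, at 0.796. In the order above, the list medians were 0.412, 0.330, 0.196, 0.201 and -0.011. Each list also held genes below 0, the lowest values being -0.360, -0.013, -0.527, -0.333 and -0.539. Of the lists for other cells, 0 of 8 hepatocyte genes, 0 of 8 macrophage genes, 0 of 10 stellate cell and portal mesenchyme genes and 0 of 3 mesothelium genes were above 0.5. Those above it were 2 of 8 endothelial genes, Gja5 and Vwf, and 1 of 3 gut epithelium genes, Vil1, which duct cells also make. Neutrophil, hepatoblast and red cell precursor lists had 0 genes above it. Medians were 0.380 for gut epithelium, 0.333 for neutrophil, 0.259 for hepatoblast, 0.183 for endothelial and 0.180 for stellate and portal genes. They were 0.092 for hepatocyte, -0.114 for red cell precursor, -0.217 for macrophage and -0.269 for mesothelium genes. Some of these medians reached or passed those of duct lists.

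Promoters are shown for Krt7 and Epcam, the pair with the highest r. Each is 300 bases from RefSeq on GRCm38.p6, from 250 bases before to 50 after the start, on the gene's strand. Capitals mark GGGCGG or its complement CCGCCC (the GC box).
Krt7: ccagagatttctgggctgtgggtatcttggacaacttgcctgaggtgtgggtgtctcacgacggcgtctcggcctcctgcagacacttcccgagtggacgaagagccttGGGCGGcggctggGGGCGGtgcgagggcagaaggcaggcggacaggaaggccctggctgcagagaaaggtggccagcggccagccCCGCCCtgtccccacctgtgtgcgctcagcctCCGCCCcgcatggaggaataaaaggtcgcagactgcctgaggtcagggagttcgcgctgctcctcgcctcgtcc
Epcam: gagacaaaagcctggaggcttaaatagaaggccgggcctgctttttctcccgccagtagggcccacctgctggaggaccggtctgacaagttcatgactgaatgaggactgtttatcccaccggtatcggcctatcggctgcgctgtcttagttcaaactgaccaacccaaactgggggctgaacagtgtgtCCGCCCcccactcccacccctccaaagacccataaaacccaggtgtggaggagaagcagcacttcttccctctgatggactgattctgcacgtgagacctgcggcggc

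These windows lie at chr15:101412153-101412452 on the plus strand for Krt7 and chr17:87635729-87636028 on the plus strand for Epcam. Promoter windows were found for 6 of the 8 genes, and Krt19 and Sox9 are named only. Searched on both strands, GGGCGG was in the windows of Cftr, Krt7 and Epcam, beside 35.66% of 32851 promoters. TATAAA was in Spp1, beside 13.62%. TGGGAA (the core of sites for the Notch partner Rbpj, in 25.56% of promoters), TGACTCA (AP-1, 5.2%) and AACCNGTT (grainyhead-like factors, 2.09%) were in 0 of the 6. These are matches of letters in a short window and say nothing of which factor binds.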

How the data were processed

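Stranded mRNA libraries were made from total RNA of 18 mouse livers, per the labels' protocols. The authors deposited whole-number scores per gene: read counts divided by a library's size factor and rounded, judged from the values, so they are scaled counts and not raw counts, and no count model was used. Per the submitters' processing notes, reads were trimmed with Trimmomatic 0.39, and the authors also name STAR 2.6.1d, featureCounts 1.6.5, Picard 2.21.7, DESeq2 1.26.0 and the build mm10 (GRCm38). Removal of duplicate reads and the strand setting of the counting are not given in the sources used here, so reads of an antisense gene may be included. Raw depth per library is unknown, and no counting interval is given.

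Groups came from the sample titles. Genes with a mean of 10 or more (14104) were tested with limma 3.58.1 (R 4.3.3) on log2(value + 1): 1 mean per group, all 18 libraries, a trend of variance with mean, 6.50 prior and 12 residual degrees of freedom, and Benjamini-Hochberg adjustment over all genes tested, with a threshold of 0.05. Log2 differences of low genes are understated on this scale. GENCODE M21 gave transcript lengths and 3′ UTRs, and 31108 IDs were found in it. 5 of the 8 genes have identical coordinates there. Silent genes are the 8686 averaging under 0.2 once P7 scrambled replicates 2 and 3 are set aside. The fit was also tested on simulated data.

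The members, gene lists and tests were chosen with earlier results of these data known. The 8 duct genes were always named. From the list of transcription factors, 1 gene is not reported here and stays out of that list's counts. From each other list, up to 3 genes with the smallest p between P14 and P5 were named, with 3 most similar genes per duct gene. Sctr, Cldn4, Ehf, Muc1, Gja5, Vwf and Vil1 were added after their values were seen, as were the alternatives for the correlations. Alternatives were TMM scaling (own code), quantile normalization, a pseudocount of 5, a minimum mean of 50, no minimum, no trend, the replicate number as a block, a length covariate, only the libraries compared, and libraries left out. Other software was data.table (1.17.8) in R, and matplotlib 3.10.9, pandas 2.3.3 and numpy 2.4.6 in Python 3.11.15.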

Additional observations from a re-analysis of the deposited data

Results flagged for a closer look

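The Jag1 difference between mimic and scrambled livers pointed in opposite directions on 2 days: all 3 mimic livers were higher at P5 and all 3 were lower at P7. The difference at P7 minus that at P5 was -0.56 on the log2 scale. The F test of a difference between the days gave an adjusted p of 0.843 (limma).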

How the results depend on the processing

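Of 980 recomputed differences of the tested duct genes, 897 kept their direction and their side of the threshold, 14 lost a call, 22 gained one and 47 changed sign. Of those 47, 0 were called values. The rise of Pkhd1 from P5 to P14 kept its call in all 22 alternatives, with adjusted p-values up to 0.0165 (limma). No alternative gave a duct gene a call in an injection comparison. The counts of genes called between P14 and P5 were 3 with quantile normalization and 1 to 2 with single libraries left out, in mimic livers 1 with only the libraries compared and 0 to 1 with libraries left out, and in scrambled livers 1 to 3 with libraries left out. Between P14 and P7 they were 1 with the length covariate, with no filter or with no trend, 4 with only the libraries compared and 0 to 4 with libraries left out. In scrambled livers they were 1 with the length covariate, with no trend or without P7 scrambled replicates 2 and 3, and 0 to 1 with libraries left out. Between P7 and P5 they were 1 with only the libraries compared or quantile normalization and 0 to 1 with libraries left out, and in mimic livers 2 with only the libraries compared. Calls over all genes moved too. Between P14 and P7 they were 3303 with the length covariate, 6967 with no trend and 7289 with only the libraries compared, against 7100. With no filter they were 6972 of 31165. In scrambled livers they were 3728 with the length covariate and 4540 with no trend, against 4765. Between P14 and P5 they were 7297 with quantile normalization, against 6878. Between P7 and P5 in mimic livers they were 2792 with only the libraries compared, against 1416. The cause of each change was not tested.

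Sign changes were as follows. With the length covariate, Jag1 was -0.060 and Pkhd1 -0.19 for P7 against P5, and Spp1 was 0.00024 for P7 against P5, 0.025 for P14 against P5 and -0.041 for the mimic at P14. With TMM scaling Spp1 was 0.021 for P14 against P5 and -0.0049 for the mimic at P14, and with quantile normalization Sox9 was 0.074 for P14 against P5. Without P7 scrambled replicates 2 and 3, Krt19 was -0.18 for the mimic at P7 and Pkhd1 -0.083 for P7 against P5. With single libraries left out, the mimic difference ran from -0.48 to 0.28 (P14) and -0.22 to 0.24 (P7) for Epcam, from -0.53 to 0.13 (P14) and -0.14 to 0.39 (P7) for Krt7, from -0.13 to 0.16 (P14) and -0.0040 to 0.22 (P7) for Spp1, and from -0.46 to 0.044 (P14) for Sox9. The age difference ran from -0.022 to 0.057 for Jag1 (P7 against P5), from -0.014 to 0.42 for Krt7 and -0.077 to 0.10 for Spp1 (P14 against P5), and for Sox9 from -0.17 to 0.077 (P14 against P5), -0.10 to 0.15 (P14 against P7) and -0.16 to 0.041 (P7 against P5). The r with Jag1 ran from -0.264 to 0.179 for Epcam, -0.0417 to 0.244 for Krt19, -0.0166 to 0.394 for Krt7, -0.229 to 0.0310 for Pkhd1 and -0.373 to 0.0681 for Spp1, and was -0.0078 for Krt19 with quantile normalization.

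Groups share replicate numbers, and the labels do not say that a number pairs libraries. The deviations of same-numbered libraries had correlations of -0.234 to 0.293 over 45 library pairs, 18 of them over 0.1, and in 2 of the 15 pairs of groups all 3 were over 0.1. With the replicate number as a block, the counts of duct genes called were 1 between P14 and P5, 2 between P14 and P7 and 0 between P7 and P5, as without it. With 3 livers a group the limits are wide: those of the Krt7 difference at P7, at 95%, were -0.84 and 1.01 on the log2 scale.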
